A study of Mus musculus with 6 samples.

Results

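The genes examined were 7 of the myosin motor, the light chain genes Myl1, Myl2, Myl3, Myl4, Mylpf and Myl6b and the light chain kinase gene Mylk2. They were taken by name, as every probe on the array whose transcript accession belongs to 1 of these symbols in a mouse annotation, with no rule on measured levels. The 7 genes had 11 probes of the 56605 on the array and made up 7 of the 25005 genes and transcripts tested. The RNA came from the quadriceps muscle of 6 male AR97Q mice aged 9 weeks, of which 3 formed the exercise (Ex) group and 3 the sedentary (Sed) group, and each mouse had 1 Agilent SurePrint G3 Mouse GE v2 array. AR97Q mice carry a human androgen receptor gene with 97 CAG repeats on a C57BL/6J background and model spinal and bulbar muscular atrophy (SBMA), so both groups carry the transgene, and wild-type mice were not analysed here. The Ex mice ran on a forced wheel for 4 weeks from 5 weeks of age, at a speed of 5 m/min and with 5 daily runs of 60 min each week, and were euthanized the day after the last run, whereas the Sed mice had no running. The question was whether running changed the expression of these genes in the muscle of the diseased mice.

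Myosin, the motor of the thick filament, has heavy chains that each carry an essential and a regulatory light chain. Fast-twitch fibres use the essential light chain of Myl1 and the regulatory light chain of Mylpf, slow-twitch fibres and the ventricle of the heart use those of Myl3 and Myl2, Myl6b encodes a further essential light chain found in slow-twitch fibres, and Myl4 encodes the essential light chain of embryonic muscle and the atrium. Mylk2 encodes the calmodulin-dependent kinase of skeletal muscle that phosphorylates the regulatory light chain.

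All values are log2 of the processed signal, the brightness of a probe after the authors' background subtraction, minus the 75th percentile of its array. A gene was called changed at a Benjamini-Hochberg adjusted p under 0.05 in limma. This fits a linear model to each gene and moderates the variances with those of all genes. The 75th percentile came to 251 to 257 units of processed signal on the Ex arrays and 310 to 384 on the Sed arrays. The share of probes well above background was 54.6 to 57.4% on the Ex arrays and 57.8 to 59.9% on the Sed arrays, with no saturated spot. The arrays shared 1 slide and 1 scan. Their barcodes hold a position number that was taken here as the strip of the slide, which the labels do not state. On this reading they lay in 2 strips. Strip 1 held the Ex arrays and Sed 1, and strip 2 held Sed 2 and Sed 3, so that outside of the comparison with Sed 1 the strip and the group cannot be told apart. The difference from Sed 1 alone is therefore given as the value within the strip, with no test.

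In the exercised muscle Myl1, Mylpf, Myl3 and Mylk2 were higher and Myl6b was lower, whereas Myl4 and Myl2 did not pass the threshold. These were 4 genes of 7 called higher, where 11.5% of all genes tested were called higher, and 1 called lower, where 6.12% of all genes were. The balance over all genes, 2868 called higher and 1530 lower, turned with the scaling between arrays, to 1172 and 3201 in the deposited table, 617 and 11280 without scaling and 354 and 11442 with scaling on spike-in probes. It was 1864 and 1364 with quantile normalization and 2680 and 875 after subtraction of the array median. Called in either direction were 5 of the 7, beside 17.6% of all genes. When a log2 fold change of 1 or more in size was required as well, Mylpf and Mylk2 remained, 2 higher beside 1.72% of all genes, and 0 were lower beside 1.06%. The groups did not overlap in 6 of the 7 genes, Myl2 being the exception, beside 43.2% of all genes. For those 6 genes Sed 1 was the Sed array nearest to the Ex mean. Leaving out Sed 1 kept 4 genes called higher and gave 2 called lower, whereas leaving out any other array left 0 called in either direction in limma, although 4 higher and 2 to 3 lower genes of the 7 had an unadjusted p under 0.05. The whole table behaved alike, with at most 1 gene called when an array other than Sed 1 was left out.

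**Figure D1:**
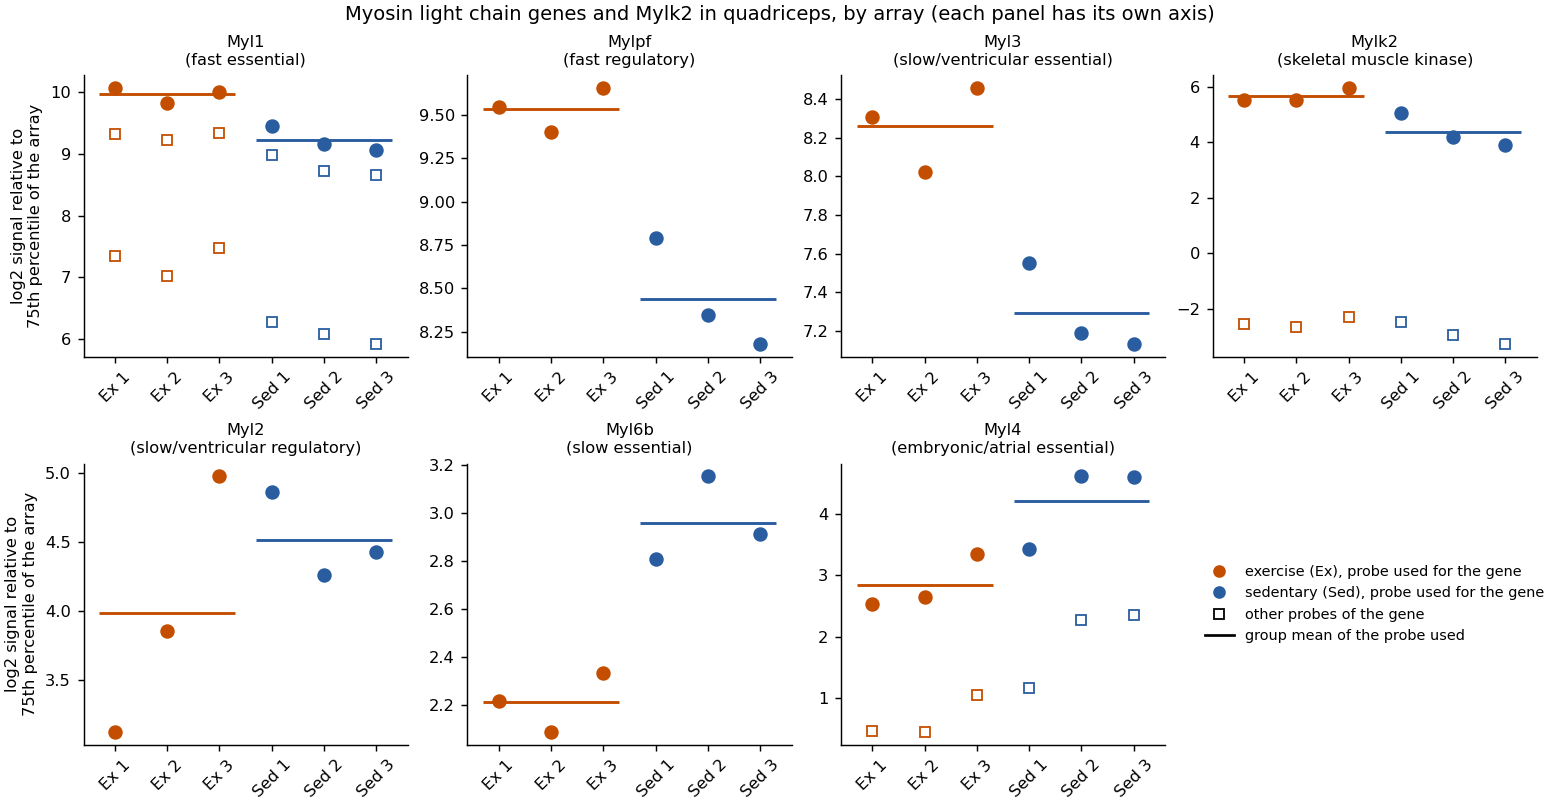
Signal of the light chain genes and Mylk2 on each array, as log2 relative to the 75th percentile of the array (vertical axis, different in each panel), with the 3 Ex arrays in orange, the 3 Sed arrays in blue, open squares for further probes of a gene and lines for group means. The Ex arrays sit above all Sed arrays for Myl1, Mylpf, Myl3 and Mylk2, below them for Myl6b and Myl4, and on both sides of them for Myl2.

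Of the fast-twitch light chains, Mylpf, the regulatory one, stood at 9.55, 9.40 and 9.65 on Ex 1, 2 and 3 and at 8.79, 8.35 and 8.18 on Sed 1, 2 and 3. Every Ex array was above every Sed array. Mylpf was upregulated by 1.09 (SE 0.17, 95% confidence interval 0.67 to 1.51, adjusted p = 0.0234 in limma, n = 3 per group), which is 2.13-fold. Within the strip the difference was 0.74.

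Myl1, the fast-twitch essential light chain, stood at 10.06, 9.82 and 10.01 on the Ex arrays and at 9.46, 9.16 and 9.06 on the Sed arrays. The Ex mean was 9.96 ± 0.13 (SD, n = 3) and the Sed mean 9.22 ± 0.21 (SD, n = 3). The difference was 0.74 (SE 0.13, 95% confidence interval 0.41 to 1.06, adjusted p = 0.0251 in limma), a rise of 1.67-fold, and 0.50 within the strip. The size of the change depended on the scaling between arrays. Before any scaling its processed signal was 231474 to 274716 on the Ex arrays and 204929 to 218161 on the Sed arrays, with no overlap and a log2 difference of 0.26 (adjusted p = 0.100 in limma). Unscaled values of all genes had a median difference of -0.45.

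Myl1 gives rise to a longer and a shorter essential light chain from alternative promoters, and its 3 probes were not all designed on the same transcript. The probe above and a second one were designed on NM_021285. The second read 9.31, 9.22 and 9.33 on the Ex arrays and 8.98, 8.72 and 8.66 on the Sed arrays, a difference of 0.50 (adjusted p = 0.0349 in limma over all probes). The third, designed on NM_001113387, read 7.35, 7.03 and 7.48 on the Ex arrays and 6.28, 6.08 and 5.93 on the Sed arrays, a difference of 1.19 (adjusted p = 0.0239). All 3 probes were higher in exercised muscle with no overlap between groups, and they differed in size. Whether a probe also binds the other transcript was not tested.

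Of the slow-twitch and ventricular light chains Myl3 was called and Myl2 was not, a difference that was not itself tested. Myl3, the essential one, stood at 8.31, 8.02 and 8.46 on the Ex arrays and at 7.55, 7.19 and 7.13 on the Sed arrays. Every Ex array was above every Sed array. Myl3 was upregulated by 0.97 (SE 0.16, 95% confidence interval 0.57 to 1.37, adjusted p = 0.0239 in limma), or 1.96-fold, and by 0.71 within the strip.

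Myl2, the regulatory one, stood at 3.13, 3.86 and 4.97 on Ex 1, 2 and 3 and at 4.86, 4.26 and 4.43 on Sed 1, 2 and 3. Ex 1 and Ex 2 were below all Sed arrays and Ex 3 was above them. The spread was 0.93 (SD) among the Ex mice and 0.31 among the Sed mice. The difference of -0.53 had a 95% confidence interval of -1.64 to 0.59, which holds changes in either direction (adjusted p = 0.437 in limma, n = 3 per group). Unscaled, the processed signal was 2246, 3721 and 7868 on the Ex arrays and 8998, 7112 and 8259 on the Sed arrays, and on that scale Ex 3 lay among the Sed arrays. Within the strip the log2 difference was -0.87.

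Myl6b, an essential light chain of slow-twitch fibres, stood at 2.22, 2.09 and 2.33 on the Ex arrays and at 2.81, 3.15 and 2.91 on the Sed arrays. Every Ex array was below every Sed array. Myl6b was downregulated, with a log2 fold change of -0.74 (SE 0.12, 95% confidence interval -1.04 to -0.44, adjusted p = 0.0238 in limma), and of -0.59 within the strip.

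Myl4, the embryonic and atrial essential light chain, stood at 2.52, 2.65 and 3.35 on the Ex arrays and at 3.43, 4.60 and 4.60 on the Sed arrays. Sed 1 lay just above the highest Ex array and well below the other Sed arrays. The difference of -1.37 (SE 0.38, 95% confidence interval -2.30 to -0.44) did not pass the threshold (adjusted p = 0.0566 in limma). It was -0.59 within the strip. A second Myl4 probe, designed on NM_010858, read 0.47, 0.46 and 1.05 on the Ex arrays and 1.16, 2.27 and 2.35 on the Sed arrays, a difference of -1.27 (adjusted p = 0.0572 in limma over all probes). On both probes every Sed array was above every Ex array, and under 8 of the 20 processing alternatives the gene passed the threshold, always as lower.

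The kinase gene Mylk2 stood at 5.50, 5.53 and 5.94 on the Ex arrays and at 5.06, 4.17 and 3.91 on the Sed arrays. Every Ex array was above every Sed array, and Sed 1 stood apart from the other Sed arrays. Mylk2 was upregulated by 1.28 (SE 0.31, 95% confidence interval 0.52 to 2.03, adjusted p = 0.0410 in limma), or 2.42-fold. Within the strip the difference was 0.60. A second, dim probe designed on the predicted transcript XM_006499319 read -2.54, -2.65 and -2.29 on the Ex arrays and -2.47, -2.94 and -3.25 on the Sed arrays. On that probe the groups overlapped and the difference of 0.39 did not pass the threshold (adjusted p = 0.243 in limma over all probes). The mean of both probes was 0.83 higher in exercised muscle (adjusted p = 0.0751), so the call for Mylk2 rests on the brighter probe, designed on NM_001081044.

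**Figure D2:**
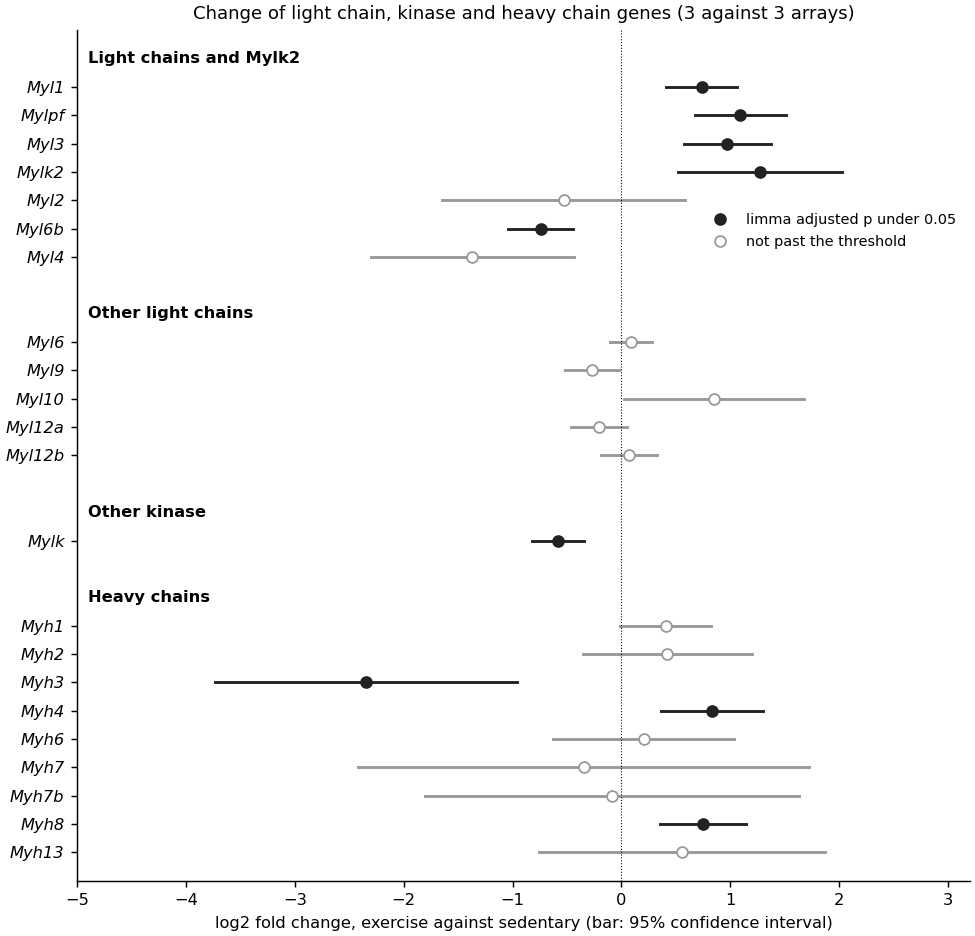
Log2 fold change of exercise against sedentary (horizontal axis) for each light chain, kinase and sarcomeric heavy chain gene tested, with 95% confidence intervals from limma as bars and filled points for an adjusted p under 0.05. Mylpf, Myl1, Myl3 and Mylk2 lie to the right of 0 with Myh4 and Myh8, and Myl6b lies to the left of 0 with Mylk and Myh3.

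Differences between 2 genes within an array do not depend on a scaling of the array by a single factor, and 4 such differences were compared between groups. Only the change of a difference is interpretable, since brightness cannot be compared between probes. With 3 against 3 arrays the exact two-sided permutation test cannot go below p = 0.1, and all 4 contrasts reached that value, with no overlap between the groups (Benjamini-Hochberg adjusted 0.1).

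The regulatory contrast, Mylpf minus Myl2, was 6.42, 5.54 and 4.68 on the Ex arrays and 3.93, 4.08 and 3.75 on the Sed arrays. The fast-twitch chain gained 1.62 over the slow-twitch chain, or 3.08-fold, and 1.61 within the strip. Among the Ex mice the SD was 0.93 for Myl2 and 0.13 for Mylpf. The essential contrast, Myl1 minus Myl3, was 1.76, 1.79 and 1.55 on the Ex arrays and 1.90, 1.97 and 1.93 on the Sed arrays. Here the change was -0.23, against the fast-twitch chain, and -0.20 within the strip. It turned to 0.22 when the probe with the largest spread stood for Myl1, so the direction of the essential contrast depends on the Myl1 probe.

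The other contrasts were added after the values were seen. Myl3 minus Myl6b, both essential light chains of slow-twitch fibres, was 6.09, 5.93 and 6.12 on the Ex arrays and 4.74, 4.04 and 4.22 on the Sed arrays. Myl3 gained 1.71, or 3.28-fold, over Myl6b, and 1.30 within the strip. The NM_001113387 probe of Myl1 minus its brighter NM_021285 probe was -2.71, -2.79 and -2.53 on the Ex arrays and -3.17, -3.07 and -3.13 on the Sed arrays. The gain of the former was 0.45, or 1.37-fold, and 0.50 within the strip.

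**Figure D3:**
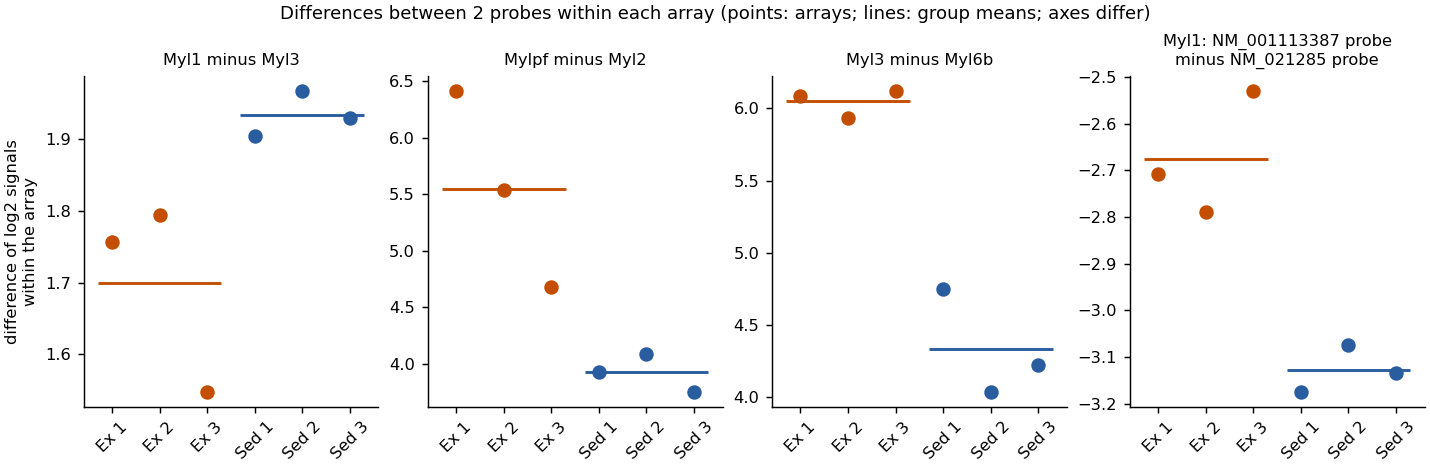
Difference between the log2 signals of a pair of probes on each array (vertical axis, log2 units, different in each panel), with orange points for Ex arrays, blue points for Sed arrays and lines for group means. The Ex arrays are lower for Myl1 minus Myl3 and higher for Mylpf minus Myl2, Myl3 minus Myl6b and the pair of Myl1 probes.

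Across the 6 arrays Myl1, Mylpf and Myl3 followed each other closely, with Pearson correlations of 0.993 between Myl1 and Mylpf, 0.989 between Myl1 and Myl3 and 0.990 between Mylpf and Myl3. Mylk2 followed them at 0.956 to 0.977, and Myl6b followed Myl4 at 0.916. These are descriptions over arrays that fall into the same groups and strips. Myl2 was correlated with none of the other members beyond -0.34 on the negative side and 0.48 on the positive side.

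Among 15746 named genes, the 1 most like each member over the arrays was Ccer2 for Myl1 (r = 0.999), Dnajc21 for Mylpf (1.00), Diras1 for Myl3 (0.999), Pold3 for Myl6b (0.996), AA986860 for Myl4 (0.998) and Coa8 for Mylk2 (0.999). Such values were common, since 1371 genes had r above 0.95 with Mylpf, 1291 with Myl1 and 1021 with Myl3. Myl2 was different, with only 14 genes above 0.95. Its nearest gene was Tnnc1 (r = 0.980), which encodes the slow-twitch and cardiac troponin C.

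Tnnc1 and Myh7 had an order of arrays much like that of Myl2. Tnnc1 stood at -1.29, -0.57 and 0.68 on the Ex arrays and at 0.25, -0.30 and -0.22 on the Sed arrays (log2 fold change -0.30, adjusted p = 0.685 in limma). Myh7, the slow-twitch and ventricular heavy chain, stood at 0.99, 1.96 and 3.69 on the Ex arrays and at 3.95, 1.66 and 2.07 on the Sed arrays (log2 fold change -0.35, adjusted p = 0.792). Ex 1 was lowest and Ex 3 and Sed 1 were the highest arrays for Myl2, Tnnc1 and Myh7 alike. The correlation of Myl2 was 0.886 with Myh7, 0.830 with Tnnt1, 0.733 with Tnni1, 0.710 with Tpm3, 0.650 with Myoz2, 0.573 with Atp2a2 and 0.408 with Casq2, as descriptions over 6 arrays. With Myh2, the heavy chain of type 2a fibres, it was 0.457, above that with the slow-twitch calsequestrin gene Casq2. In an extract of whole muscle, fewer fibres of a type and less RNA per fibre cannot be told apart.

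**Figure D4:**
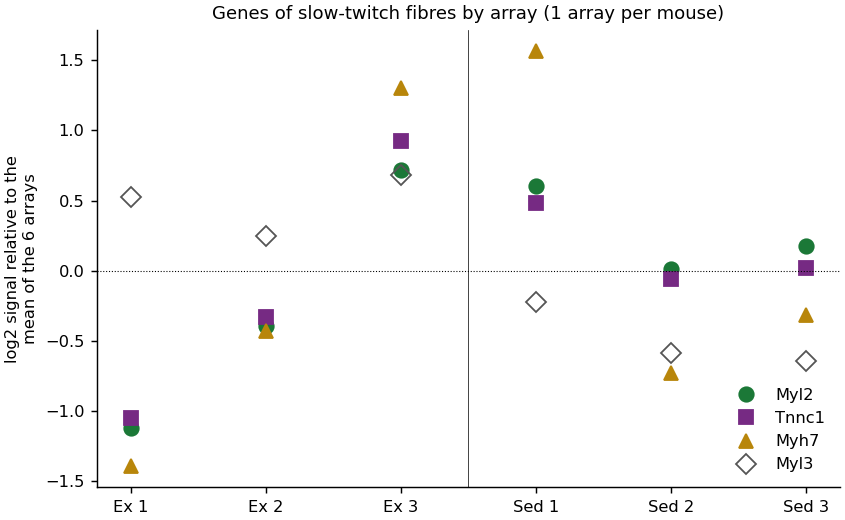
Log2 signal of Myl2, Tnnc1, Myh7 and Myl3 on each array relative to the gene's mean over the 6 arrays (vertical axis, log2 units), with the Ex arrays to the left of the line and the Sed arrays to the right. Myl2, Tnnc1 and Myh7 are low on Ex 1 and high on Ex 3 and Sed 1, while Myl3 is above its mean on all Ex arrays and below it on all Sed arrays.

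The stretches of genome just before the transcription starts of the 3 light chain genes that rose together and of Myl6b, which fell, are shown for comparison of their motifs. The table used gave 1 start for Myl1. The windows hold the 250 bases before the start in RefSeq's GRCm38.p6 and are written 5′ to 3′ on the strand of the gene. They lie at chr1:66945057-66945306 on the minus strand (Myl1), chr7:127211358-127211607 on the plus strand (Mylpf), chr9:110763428-110763677 on the plus strand (Myl3) and chr10:128498686-128498935 on the minus strand (Myl6b). Capitals mark each E-box, the motif CANNTG on either strand to which myogenic factors such as MyoD can bind, and in Myl3 also a CArG box, the motif of serum response factor.
Myl1: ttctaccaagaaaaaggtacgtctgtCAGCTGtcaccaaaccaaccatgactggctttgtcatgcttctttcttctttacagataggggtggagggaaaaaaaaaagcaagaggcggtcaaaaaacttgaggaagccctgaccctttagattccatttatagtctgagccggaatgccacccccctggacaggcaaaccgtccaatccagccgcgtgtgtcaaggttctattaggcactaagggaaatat
Mylpf: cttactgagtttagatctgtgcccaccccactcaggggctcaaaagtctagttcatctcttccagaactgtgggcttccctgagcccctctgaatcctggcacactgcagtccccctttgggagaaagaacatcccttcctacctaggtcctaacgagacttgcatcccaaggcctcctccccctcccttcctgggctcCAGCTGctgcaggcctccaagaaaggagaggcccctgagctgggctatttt
Myl3: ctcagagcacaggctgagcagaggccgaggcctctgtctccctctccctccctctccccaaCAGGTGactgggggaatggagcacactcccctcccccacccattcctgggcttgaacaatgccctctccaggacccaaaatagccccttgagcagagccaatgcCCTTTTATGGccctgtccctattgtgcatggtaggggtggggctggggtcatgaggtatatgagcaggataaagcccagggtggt
Myl6b: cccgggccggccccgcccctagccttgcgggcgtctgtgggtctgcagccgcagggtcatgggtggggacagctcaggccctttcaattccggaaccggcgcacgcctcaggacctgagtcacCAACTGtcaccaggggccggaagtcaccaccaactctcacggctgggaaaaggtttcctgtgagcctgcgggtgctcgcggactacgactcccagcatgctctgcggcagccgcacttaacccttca

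Each of these 4 windows held 1 E-box, which began at base -224 in Myl1, -51 in Mylpf, -189 in Myl3 and -127 in Myl6b, counted back from the start. The letters were CAGCTG in Myl1 and Mylpf, CAGGTG in Myl3 and CAACTG in Myl6b. E-boxes were common, in 66.2% of all 32851 windows of this length. The CArG box CCTTTTATGG in Myl3 began at base -85, and 1.47% of all windows held one. The motif CATTCC, on either strand, was in the windows of Myl1 and Myl3 and in 12.6% of all windows. The Myl4 window held no match to these motifs, and no window of the 6 genes with one held a MEF2 motif, which 2.92% of all windows did. A match is a description of letters and says nothing of binding.

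The other light chains of the myosin family, which serve smooth muscle and non-muscle myosins or other sites, were not called. Of 7 such genes 5 were tested, 3 with a higher and 2 with a lower value in exercised muscle, and 0 passed the threshold in limma, where 1 higher (Myl10) and 1 lower (Myl9) had an unadjusted p under 0.05. Their median log2 fold change was 0.07, beside 0.026 over all genes tested. Myl6, the general non-muscle essential light chain, changed by 0.09 (adjusted p = 0.454) and Myl9, the smooth muscle regulatory light chain, by -0.27 (adjusted p = 0.111). Values were -0.20 for Myl12a (adjusted p = 0.218), 0.07 for Myl12b (adjusted p = 0.658) and 0.85 for the dim Myl10 (adjusted p = 0.128). Myl7, the atrial regulatory light chain, was not well above background on any array, and Myl5 had no matched probe.

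Mylk, the light chain kinase of smooth muscle and other tissues, changed opposite to Mylk2. It stood at 0.86, 0.91 and 0.92 on the Ex arrays and at 1.63, 1.43 and 1.37 on the Sed arrays, with no overlap. The log2 fold change was -0.58 (SE 0.10, adjusted p = 0.0239 in limma) and -0.74 within the strip. Its 2 further probes gave -0.40 and -0.51 (adjusted p = 0.0635 and 0.0480 in limma over all probes). Of 6 markers of smooth muscle, 2 were called lower. Myh11, the smooth muscle heavy chain, changed by -0.95 and Lmod1 by -0.76, or by -0.88 and -0.74 within the strip. A lower value was seen in 5 of the 6. Lmod1 was well above background on only 4 arrays, and Myocd, also among the 5, on only 3. Both were dim and read higher on the Sed arrays, through which the filter may have kept them. The summed level of the 6 markers, in multiples of the 75th percentile, was 61.5 to 62.3 on the Ex arrays and 65.0 to 80.7 on the Sed arrays. That sum was mostly Smtn and Tagln, with Ex means of 5.40 and 4.11 on the log2 scale, beside -0.40 for Myh11. Smtn changed by 0.08 and Tagln by -0.52, and neither was called (adjusted p = 0.667 and 0.0656 in limma). The part of smooth muscle in the fall of Mylk was not tested. Mylk3, the cardiac kinase, was well above background on at most 1 array and was not tested, and Mylk4 had no matched probe.

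Calmodulin, which activates these kinases, and the phosphatase that removes the phosphate from the regulatory light chain made up a list of 10 genes. In it 2 were called higher, 1 was called lower and 7 were not called. Calm3 rose by 0.60 (adjusted p = 0.0295 in limma) and Calm2 by 0.37 (adjusted p = 0.0435), both encoding calmodulin, and within the strip they differed by 0.38 and 0.26. Ppp1r12a, a targeting subunit of the phosphatase, stood at 2.90, 2.79 and 2.95 on the Ex arrays and at 3.55, 3.46 and 3.56 on the Sed arrays. It fell by 0.64 on the log2 scale (SE 0.087, adjusted p = 0.0234), and by 0.67 within the strip. The related subunits Ppp1r12b and Ppp1r12c were not called, at 0.26 and -0.17 (adjusted p = 0.179 and 0.322 in limma). The median of the list was 0.12.

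Among the 9 sarcomeric heavy chain genes, the partners of the light chains, 2 were called higher, 1 was called lower and 6 were not called, with a median of 0.41. Myh4, the heavy chain of the fastest fibres (type 2b), rose by 0.83 (adjusted p = 0.0366 in limma), and by 0.45 within the strip. A second, dimmer Myh4 probe gave 1.48 and did not pass (adjusted p = 0.0595 in limma over all probes). Myh8, the perinatal heavy chain, rose by 0.75 (adjusted p = 0.0323), and by 0.43 within the strip, while a second and dim probe of it gave -0.71. Myh3, the embryonic heavy chain, was lower by a log2 value of -2.35 (adjusted p = 0.0409), and of -1.55 within the strip, while its second and dim probe gave 0.92. The heavy chain genes are near-identical in places, so a probe may read more than 1 of them. Values that did not pass were 0.41 for Myh1 (adjusted p = 0.143), 0.42 for Myh2 (adjusted p = 0.377), 0.20 for Myh6 (adjusted p = 0.694), -0.08 for Myh7b (adjusted p = 0.943) and 0.56 for Myh13 (adjusted p = 0.484), with Myh7 as given above.

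Further proteins of the thick filament and the M-band had a median log2 fold change of 0.27 over 11 genes, and 0 were called lower in limma (1 at an unadjusted p under 0.05). Mybpc2, the fast-twitch myosin binding protein C, rose by 1.42 (adjusted p = 0.0321) and Smyd1, a methyltransferase that takes part in the assembly of myosin, by 0.56 (adjusted p = 0.0461). Within the strip the differences were 0.77 and 0.27. A second Smyd1 probe gave 0.39 and did not pass (adjusted p = 0.0584 in limma over all probes).

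The rise of Myl1 and Mylpf was accompanied by the other fast-twitch genes. All 10 of the list were called higher, with log2 fold changes of 0.52 to 1.67 and a median of 1.29. Pvalb, the calcium buffer parvalbumin, rose by 1.67 (adjusted p = 0.0298) and Tmod4, a cap of the thin filament, by 1.61 (adjusted p = 0.0322). Against Sed 1 alone these differences were smaller, at 0.88 and 0.80. Of the 7 other slow-twitch genes 2 were called lower, 0 were called higher and 6 had a lower value, with a median of -0.50. Tnni1, the slow-twitch troponin I, changed by -1.45 (adjusted p = 0.0277) and Atp2a2, the slow-twitch calcium pump, by -0.79 (adjusted p = 0.0381), with -1.38 and -0.59 within the strip. Further probes of Atp2a2 gave -0.78 and -0.29 and did not pass (adjusted p = 0.0611 and 0.148 in limma over all probes). Myl3 therefore moved against these called slow-twitch genes, and its correlation with Mylpf is given above.

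Myl4 was measured beside 10 other genes of developing or denervated muscle. In that list 6 were called lower, 0 were called higher and 9 had a lower value, with a median of -1.41. Chrng, the embryonic acetylcholine receptor subunit, had the largest called change of the list at -3.62 (adjusted p = 0.0304 in limma), followed by Chrnd at -1.92 (adjusted p = 0.0360). Within the strip the values were smaller, at -1.82 and -0.87. As for Myl4, Sed 1 lay between the Ex arrays and the other Sed arrays for both, with 0.28 against 2.84 and 3.12 for Chrng. A second, dimmer Chrng probe gave -2.50 and did not pass (adjusted p = 0.0709 in limma over all probes). The lists of fast-twitch and denervation genes were drawn up with earlier results of these data known and are no independent evidence of a direction.

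Defining markers of skeletal muscle were well above background on all 6 arrays, and 3 of 6 were called higher in exercised muscle. Their summed level was 2000 to 2398 on the Ex arrays and 913 to 1317 on the Sed arrays, and their part in the rise of Myl1, Mylpf, Myl3 and Mylk2 was not tested. Called higher were Ckm, the muscle creatine kinase, by 1.50, Tcap, a protein of the Z-disc, by 1.04 and Acta1 by 0.93. Within the strip they differed by 1.03, 0.66 and 0.71. Not called were Des at 0.15, Ttn at 0.28 and Neb at -0.06 (adjusted p = 0.310, 0.320 and 0.805 in limma). Markers of the heart, the other organ that uses Myl2, Myl3 and Myl4, were also measured. Their summed level was 0.451 to 0.793 on the Ex arrays and 0.413 to 0.685 on the Sed arrays, 0 of the 3 tested were called in limma (0 at an unadjusted p under 0.05), and no array had Ryr2 well above background. For red blood cells, adipocytes, macrophages, fibroblasts and endothelium 0 markers were called in limma, and 0 had an unadjusted p under 0.05.

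**Figure D5:**
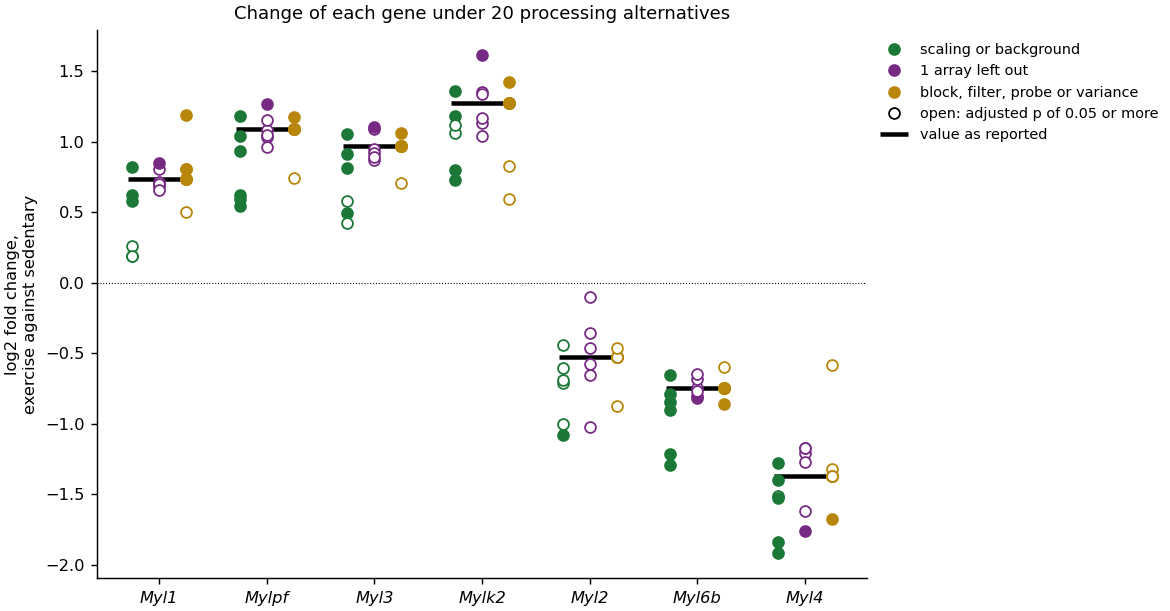
Log2 fold change of exercise against sedentary (vertical axis) of each light chain gene and Mylk2 under 20 other ways of processing the arrays, with colours for the kind of alternative, black lines for the values in the text and open points for an adjusted p of 0.05 or more. No point of any gene crosses 0, and Myl1 moves nearest to it among the genes called higher, at 0.19. Not all of the alternatives could move a point across 0.

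Over the 20 processing alternatives each of the 7 genes kept its direction, with ranges of 0.19 to 1.19 for Myl1, 0.54 to 1.27 for Mylpf, 0.42 to 1.10 for Myl3 and 0.60 to 1.62 for Mylk2. The ranges were -1.29 to -0.59 for Myl6b, -1.92 to -0.59 for Myl4 and -1.08 to -0.10 for Myl2. Not all of the 20 could move a direction. The other filters, the replicate block and the trend and robust fit gave the same fold changes as in the text. The other probe choices could not alter Mylpf, Myl3, Myl2 and Myl6b, which had 1 probe each. Nor could they reverse Myl1 and Myl4, since on every probe of these the groups did not overlap. In the 6 genes without overlap, leaving out an array, the strip block and array weights could not reverse the direction either. For those genes mainly the scaling and background settings bear on direction. Mylpf and Myl6b passed the threshold under 13 of the 20, Myl3 under 11, Myl1 and Mylk2 under 10, Myl4 under 8 and Myl2 under 1.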

How the data were processed

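RNA of each quadriceps was labelled with 1 dye and hybridized to 1 array. The authors deposited a scanner file per array from Feature Extraction 12.1.0.3, with the processed signal of each spot as a background-subtracted intensity on a linear scale. A further deposited table held the same intensities times 1 factor per array, between 1.33 and 1.88.

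Control spots (3671 of 62976) and outlier spots were left out, spots of a probe were averaged, and log2 minus the array's 75th percentile was taken. Probes missing on an array (22) were dropped, and 32726 of 56605 probes were kept, those that 3 or more arrays flagged as well above background. Probes were named by matching unversioned accessions to RefSeq names (GRCm38.p6), of which 34566 matched 1 symbol, 0 several and 22039 none. The scanner files were designed on another build, so only names were used. Of several probes of a gene the brightest was tested. The Ex and Sed arrays were compared in R 4.3.3 with limma 3.58.1 (lmFit, eBayes, two-sided, Benjamini-Hochberg over 25005 genes and transcripts), without covariates. Differences within arrays were compared with an exact permutation test (scipy 1.17.1). The fit was tested on simulated data.

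Genes named are the 7 genes with every probe, the tested genes of the light chain, kinase and heavy chain lists, the 2 largest called rises and falls of each other list, and the most correlated gene of each of the 7. Myh7, Tnnc1 and its correlates, Ppp1r12b, Ppp1r12c and the markers were named outside this rule. Some genes of the lists are not reported here. The genes and lists were chosen with earlier results of these data known. The fit over single probes and 2 contrasts were added after the data were seen. Alternatives were quantile, median, spike-in (8 probes), deposited and no scaling, normexp (offset 50), other filters and probe choices, each array left out, replicate and strip blocks, array weights, trend and robust, and a fold minimum. The number of arrays limits the precision.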

Additional observations from a re-analysis of the deposited data

How the results depend on the processing

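The 7 genes kept their direction under all 20 alternatives. Some of these leave the fold change as it is and bear only on the threshold. Others, such as leaving out an array, could not reverse a gene whose groups did not overlap. Of the 140 values this gives, 88 kept their side of the threshold, 43 lost it and 9 gained it, and 0 reversed. The number called higher, 4 in the text, was 1 with quantile normalization, 2 with spike-in scaling, 2 with the fold minimum and 0 to 4 with 1 array left out. The number called lower, 1 in the text, was 2 after subtraction of the array median, without scaling, with normexp, with the filter on all arrays, with the deposited table and with array weights, 3 with spike-in scaling, 0 with the fold minimum and 0 to 2 with 1 array left out. Scalings moved the median of all genes, to -0.45 without scaling, -0.52 with spike-ins, -0.13 in the deposited table and 0.11 with the array median, against 0.026. The strip as a block gave 0 called higher and 0 lower in limma (4 and 1 of the 7 genes at an unadjusted p under 0.05), with 0 and 3 of all genes, where 2973 and 1854 had an unadjusted p under 0.05. With the replicate block 0 of the 7 genes were called higher and 0 lower (4 and 2 at an unadjusted p under 0.05), as were 0 and 0 of all genes in limma, where 4969 and 3622 had an unadjusted p under 0.05. Deviations from the group means correlated at 0.015, 0.085 and 0.036 for same-numbered arrays and at -0.107 to 0.075 for the other pairs. With 3 arrays per group these values cannot show whether the replicate numbers pair the mice. The contrast Myl1 minus Myl3 reversed, from -0.23 to 0.22, with the probe of the largest SD. The causes of the lost calls were not tested, and without Sed 1, with equally few arrays, 3476 of all genes were called higher and 2060 lower. Probes not well above background limit what can be said of Myl7 and Mylk3.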
